A study of Mus musculus with 6 samples.

Results

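The IFIT family (interferon-induced proteins with tetratricopeptide repeats) was examined in immortalized mouse embryonic fibroblasts (MEFs) with and without the mitochondrial protease YME1L. The members taken were Ifit1, Ifit2, Ifit3, Ifit3b, Ifit1bl1 and Ifit1bl2, 6 of the 51499 loci in the count table, and they were proposed with the difference between the genotypes already known. Their fold changes are therefore descriptions, given with the error of the fit and without p-values, and nothing is read from how many of them pass a threshold. Each member was a locus of its own, and 0 of the 6 had been merged with another gene. Of the 13867 loci with enough fragments for the fit, 5 were members. Ifit1bl1 did not pass the filter, and Ifit1bl2 passed it only through the Yme1l-/- libraries, where it was higher.

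Poly(A)-selected RNA was sequenced from 3 wild-type (WT) and 3 Yme1l-/- cultures. The WT cells are Yme1l fl/fl: they carry floxed alleles that Cre left intact, and the Yme1l-/- cells come from SV40-immortalized MEFs of the same floxed origin in which the alleles were recombined. Both genotypes therefore share the floxed background, the T antigen, the exposure to Cre and growth from single clones. The labels name no treatment, and the number of clones behind each genotype is not given in the sources used here, so that clone and genotype cannot be told apart. P-values measure only the spread between these cultures, which may be technical.

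IFIT genes are among the most strongly induced targets of type I interferon. Interferon signals through its receptor to ISGF3, a transcription factor complex with STAT2 and IRF9 that binds interferon-stimulated response elements in promoters, and IRF3 can drive some of the same genes directly. The proteins act in the cytosol: IFIT1 holds the 5′ end of RNA that lacks cap methylation and competes with the cap-binding factor eIF4E, IFIT2 also binds RNA and takes part in cell death, and IFIT3 is an adaptor that partners the other members. Several IFIT proteins contact the initiation factor eIF3. Fibroblasts hold low levels of these transcripts at rest.

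The 6 genes lie side by side on chromosome 19 (mm10), within 99316 bases from 34550694 to 34650009, 4 of them on the plus strand and 2 on the minus strand. The upstream sequence of each is shown because IFIT genes are known interferon targets, and because Ifit1 and Ifit1bl2 stand head to head and share a single upstream stretch. Capitals mark matches to GAAA, any 2 bases and GAAA again, or on the other strand TTTC, any 2 bases and TTTC, the core of an interferon-stimulated response element, and all sequences read 5′ to 3′ on the strand named (RefSeq promoter table, GRCm38.p6).
Ifit1 and Ifit1bl2, between the starts, chr19:34640744-34640870, plus strand: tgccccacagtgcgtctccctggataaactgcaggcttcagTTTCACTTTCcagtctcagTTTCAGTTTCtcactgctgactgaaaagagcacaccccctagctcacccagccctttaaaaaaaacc
Ifit3, chr19:34583329-34583528, plus strand: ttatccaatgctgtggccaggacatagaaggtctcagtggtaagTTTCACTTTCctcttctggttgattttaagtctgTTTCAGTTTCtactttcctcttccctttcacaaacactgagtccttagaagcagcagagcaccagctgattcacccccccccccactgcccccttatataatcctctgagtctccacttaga
Ifit3b, chr19:34607757-34607956, plus strand: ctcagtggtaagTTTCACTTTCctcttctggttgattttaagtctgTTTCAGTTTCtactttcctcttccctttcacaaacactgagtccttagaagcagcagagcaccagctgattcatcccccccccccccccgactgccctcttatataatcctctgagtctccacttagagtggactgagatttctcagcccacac
Ifit1bl1, chr19:34601969-34602168, minus strand: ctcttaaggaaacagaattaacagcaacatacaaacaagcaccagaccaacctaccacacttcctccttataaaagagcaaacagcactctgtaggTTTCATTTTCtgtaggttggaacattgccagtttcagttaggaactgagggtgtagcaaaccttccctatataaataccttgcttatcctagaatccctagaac
Ifit2, chr19:34550494-34550693, plus strand: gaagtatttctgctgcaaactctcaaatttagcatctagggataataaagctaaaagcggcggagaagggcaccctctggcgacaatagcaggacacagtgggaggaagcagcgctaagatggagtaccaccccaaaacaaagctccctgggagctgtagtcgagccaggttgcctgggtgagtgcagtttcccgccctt

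In windows from 250 bases before to 50 bases after each RefSeq start, searched on both strands, 5 of the 6 members held the motif (83.3%). Among all genes with a promoter there, 1079 of 27025 did (3.99%). Overlapping matches were counted at each position. Ifit1 held matches starting 104 and 85 bases before its RefSeq start, and the same 2 matches lay 70 and 51 bases before the upstream start of Ifit1bl2 on the opposite strand. The stretch shown ends at the deposited start of the Ifit1 locus (34640871), which lies upstream of that RefSeq start. In Ifit3 the matches stood 156 and 122 bases before the start, and in Ifit3b they stood at 188 and 154. These windows were nearly the same sequence, with 258 of 260 aligned bases identical (99.2%). Ifit1bl1 has 2 RefSeq starts with 1 match before each, 104 bases before the one shown and 23 bases before the other. The window at a second RefSeq start of Ifit1bl2 held none. Neither of the Ifit2 windows held these letters, which says nothing about other spellings of the element or about sites outside the window. The motif was found in 9 of the 20 matched promoters of other antiviral effector genes (45%), in 3 of 7 of sensors and adaptors (42.9%), in 3 of 13 of the receptor and ISGF3 pathway (23.1%), in 1 of 10 of eIF3 subunits (10%) and in 0 of 10 of cap-related genes.

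Transcripts of the family were lower in sum in Yme1l-/- cells, and the members differed among themselves. Ifit2, the most abundant member in WT cells, stood at 65.2% of its WT level, while Ifit1 was level between the genotypes at 99.9%. The near-identical pair Ifit3 and Ifit3b had lower means, but the libraries overlapped for Ifit3, and Ifit3b rested on few fragments. Ifit1bl2 was rare and had higher values in Yme1l-/- cells, the only libraries that brought it past the filter. Levels below are CPM (fragments counted, scaled to library size with TMM factors), and fold changes are log2 values of Yme1l-/- over WT ± SE with n = 3 cultures per genotype. In bulk RNA, fewer expressing cells and less RNA per cell cannot be told apart.

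The libraries held between 33180867 and 34012520 counted fragments in WT cells, and 34624075, 49351107 and 49157459 in Yme1l-/- cells, so that 1 fragment was worth 0.0302 to 0.0306 CPM in WT libraries and 0.0196 to 0.0286 CPM in Yme1l-/- libraries. Yme1l1, the deleted gene, checked the labels: it had 6327, 6292 and 5968 fragments in WT libraries and 1327, 1963 and 2067 in Yme1l-/- libraries, or 20.7% of the WT level. Of 12 fibroblast markers, 11 had more than 3 fragments in every WT library and 10 in every Yme1l-/- library, and their summed level was 6974 to 7455 CPM in Yme1l-/- libraries against 11330 to 11910 CPM in WT libraries. The 6 epithelial markers, led by Krt19, summed to 142 to 159 CPM in WT and to 2.75 to 3.69 CPM in Yme1l-/- libraries. Macrophage markers (8, with Adgre1 at 0 and a summed level of 2.63 to 3.05 CPM in WT and 4.42 to 5.14 CPM in Yme1l-/- libraries) and endothelial markers (6, with Tie1 at 0, at 0.949 to 1.56 and 1.94 to 2.17 CPM) were low. These shifts run along with genotype, and their part in the IFIT values was not tested.

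Ifit1 (ENSMUSG00000034459, chr19:34640871-34650009, plus strand, exons of 2656 bases in all, a coding sequence of 1389 bases) encodes the member that recognizes RNA 5′ ends. Its fragments numbered 902, 988 and 835 in WT libraries and 871, 1443 and 1500 in Yme1l-/- libraries. This corresponded to 27.2, 30.2 and 25.6 CPM in WT and to 24.9, 28.6 and 29.4 CPM in Yme1l-/- libraries. The lowest value was in a Yme1l-/- library and the highest in a WT library, so the genotypes overlapped fully. The means were 27.7 ± 2.33 and 27.7 ± 2.43 CPM (SD, n = 3), and the log2 fold change was 0.00 ± 0.08. Of all tested loci, 50.4% had a lower log2 fold change, which put Ifit1 at the middle of the transcriptome.

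Ifit2 (ENSMUSG00000045932, chr19:34550694-34576419, plus strand, exons of 3927 bases in all) is the member at the far end of the cluster. It had 1596, 1698 and 1737 fragments in WT libraries, or 48.2, 51.9 and 53.2 CPM, and 1122, 1673 and 1765 fragments in Yme1l-/- libraries, or 32.1, 33.2 and 34.6 CPM. The highest Yme1l-/- value was below the lowest WT value, with a gap wider than the range within either genotype. The means were 51.1 ± 2.58 and 33.3 ± 1.29 CPM (SD, n = 3) and the log2 fold change was -0.62 ± 0.06. Of the tested loci, 14.8% had a lower log2 fold change. Ifit2 is also the member whose fragments can be assigned with least doubt, since no stretch of its transcripts occurs in another gene.

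Ifit3 (ENSMUSG00000074896, chr19:34583531-34588731, plus strand, exons of 1745 bases in all) encodes the adaptor of the family. Its fragments numbered 115, 159 and 175 in WT libraries (3.47, 4.86 and 5.36 CPM) and 101, 200 and 198 in Yme1l-/- libraries (2.89, 3.97 and 3.89 CPM). The first WT culture lay among the Yme1l-/- values, so the genotypes overlapped. The means were 4.56 ± 0.976 and 3.58 ± 0.602 CPM, a log2 fold change of -0.34 ± 0.18. The value was -0.21 without WT replicate 3, -0.22 without Yme1l-/- replicate 1 and -0.51 without WT replicate 1.

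Ifit3b (ENSMUSG00000062488, chr19:34607970-34613401, plus strand, exons of 2000 bases in all) is the near copy of Ifit3. It had 34, 72 and 38 fragments in WT libraries (1.03, 2.20 and 1.16 CPM) and 24, 49 and 38 in Yme1l-/- libraries (0.686, 0.972 and 0.746 CPM). The genotypes did not overlap, but the highest Yme1l-/- value came close to the lowest WT value, and the second WT culture stood far above all others. The log2 fold change of -0.85 ± 0.30 became -0.44 without WT replicate 2.

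Ifit1bl1 (ENSMUSG00000079339, chr19:34592888-34601968, minus strand) and Ifit1bl2 (ENSMUSG00000067297, chr19:34617049-34640743, minus strand) resemble Ifit1 and were almost silent. Ifit1bl1 had 10, 6 and 5 fragments in WT and 5, 10 and 8 in Yme1l-/- libraries, or 0.302, 0.183 and 0.153 against 0.143, 0.198 and 0.157 CPM. These values overlapped, and no fold change was fitted. Ifit1bl2 had 4, 3 and 6 fragments in WT libraries (0.121, 0.0916 and 0.184 CPM) and 17, 15 and 20 in Yme1l-/- libraries (0.486, 0.297 and 0.392 CPM). All 3 Yme1l-/- libraries were above the WT libraries, with means of 0.392 ± 0.0942 and 0.132 ± 0.0471 CPM (SD, n = 3) and a log2 fold change of 1.52 ± 0.43. The difference thus rests on at most 20 fragments in a library, beside 835 or more from Ifit1 across the shared upstream stretch.

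At an adjusted p under 0.05 (edgeR's quasi-likelihood test, Benjamini-Hochberg adjustment over all loci tested), the fit over all loci marked 3 members, Ifit1bl2 higher and Ifit2 and Ifit3b lower (1 higher and 2 lower), where 67.7% of all tested loci were called, 33.6% higher and 34.1% lower. Libraries of the genotypes did not overlap for 3 members, 2 of them lower and 1 higher in Yme1l-/- cells, against 71.9% of all tested loci, 36% lower and 35.9% higher. The median log2 fold change of the 5 fitted members was -0.34, and that of all loci tested was -0.00. Because the members were proposed from this comparison, their counts are a description only. Ifit1bl2 entered the fit only through its level in the Yme1l-/- libraries. The count also depends on single cultures and settings. Ifit3b was not marked without WT replicate 2 (-0.44), Yme1l-/- replicate 1 (-0.77) or Yme1l-/- replicate 3 (-0.80), and Ifit3 was marked without WT replicate 1 (-0.51) and when summed with Ifit3b (-0.45).

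**Figure D1:**
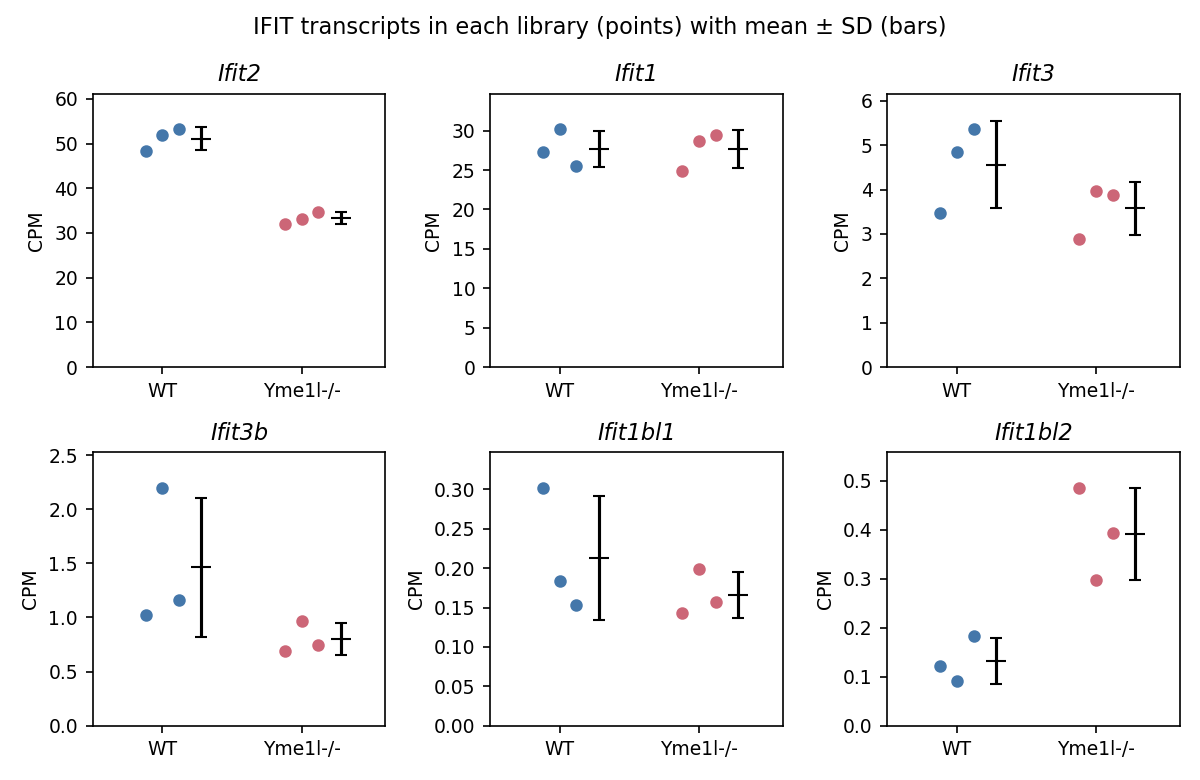
CPM of each IFIT member (y axis, linear and starting at 0, with a scale of its own in each panel) in the 3 WT and 3 Yme1l-/- libraries. Points are libraries and the bars beside them are the mean ± SD. Ifit2 separates the genotypes (48.2 to 53.2 against 32.1 to 34.6 CPM), Ifit1 does not, and Ifit1bl1 and Ifit1bl2 stay below 0.5 CPM.

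Because CPM does not allow for transcript length, levels of different members were compared per kilobase of exon. In WT cells the order was Ifit2 (13.0 CPM per kb, range over libraries 12.3 to 13.6), Ifit1 (10.4, 9.63 to 11.4), Ifit3 (2.62, 1.99 to 3.07), Ifit3b (0.732, 0.514 to 1.10), Ifit1bl1 (0.0942, 0.0678 to 0.134) and Ifit1bl2 (0.0392, 0.0272 to 0.0546). No neighbours in this order overlapped. In Yme1l-/- cells Ifit1 led with 10.4 CPM per kb (9.37 to 11.1), ahead of Ifit2 with 8.48 (8.17 to 8.82), then Ifit3 with 2.05 (1.65 to 2.27) and Ifit3b with 0.401 (0.343 to 0.486). Ifit1bl2 with 0.116 (0.0884 to 0.144) stood just above Ifit1bl1 with 0.0735 (0.0632 to 0.0878), on at most 20 fragments a library. The order of Ifit1 and Ifit2 thus differed between the genotypes. No order is read for Ifit1bl1 and Ifit1bl2, whose ranges nearly touched in Yme1l-/- cells and which had 3 to 10 fragments in WT libraries. The authors' FPKM values, 1 per genotype, gave Ifit2 14.95 in WT and 9.51 in Yme1l-/- cells and Ifit1 10.8 in both.

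The balance of Ifit1 and Ifit2 can also be read within each library, where scaling between libraries plays no part. Ifit2 gave more fragments than Ifit1 in all 6 libraries, by a smaller margin in the Yme1l-/- libraries. The ratio of Ifit1 to Ifit2 in CPM was 0.565, 0.582 and 0.481 in WT libraries and 0.776, 0.863 and 0.850 in Yme1l-/- libraries, or 0.543 ± 0.0542 against 0.830 ± 0.0466 (SD, n = 3). Ifit2 supplied 58.0% to 62.1% of all IFIT fragments in WT libraries and 49.4% to 52.4% in Yme1l-/- libraries. At the facing ends of these ranges the Wilson 95% intervals were 56.2% to 59.8% (WT replicate 2) and 50.3% to 54.5% (Yme1l-/- replicate 1), which do not meet. Such intervals cover counting error only. Ifit1 supplied 29.9% to 33.9% in WT and 40.7% to 42.6% in Yme1l-/- libraries. Ifit1bl2 reached 0.794% of the family at most.

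The family as a whole gave 2661, 2926 and 2796 fragments in WT libraries and 2140, 3390 and 3529 in Yme1l-/- libraries. Scaled to depth this was 80.4, 89.4 and 85.6 CPM in WT and 61.2, 67.2 and 69.3 CPM in Yme1l-/- libraries. The genotypes did not overlap, with means of 85.1 ± 4.51 and 65.9 ± 4.22 CPM and a log2 fold change of -0.37 ± 0.06. The difference in Ifit2 was the largest part of it in CPM.

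**Figure D2:**
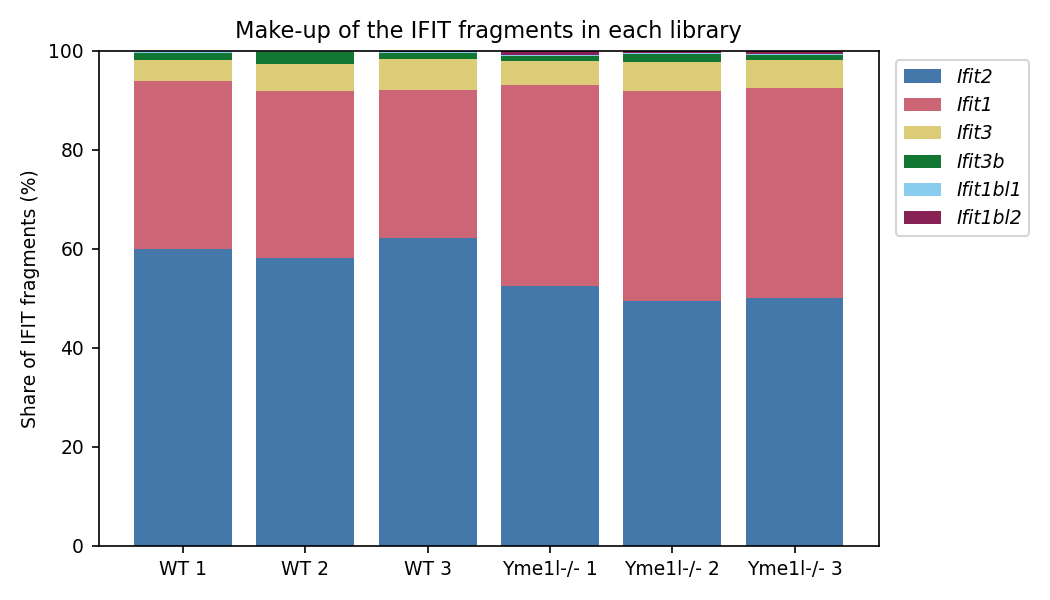
Share of all IFIT fragments (y axis, %) supplied by each member in each of the 6 libraries (x axis), stacked to 100%. Ifit2 and Ifit1 fill most of every bar, and the boundary between them sits lower in the Yme1l-/- libraries (Ifit2 49.4% to 52.4%) than in the WT libraries (58.0% to 62.1%).

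How far members can exchange fragments was read from their transcripts (GENCODE M21, GRCm38). Ifit3 and Ifit3b have coding sequences of 1209 bases each that are identical at 1198 positions (99.1%). Of the stretches of 100 bases, the read length, in Ifit3 transcripts 31.6% occur unchanged in Ifit3b, and 27.4% of those in Ifit3b occur in Ifit3. Read pairs that fall wholly within these stretches cannot be placed by sequence, so the single values of the pair are uncertain. Ifit1 shares 3.29% of its stretches with Ifit1bl2, which in turn shares 2.57% of its own with Ifit1, and Ifit1bl1 shares 11 stretches with Ifit1bl2 and none with Ifit1. Ifit2 shares none, and no member shares any with a gene outside the family. Coding identity was 88.3% between Ifit1bl1 and Ifit1bl2, 77.3% and 77.0% between Ifit1 and these, and 60.1% to 64.6% for the remaining pairs.

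With the pair counted as a single locus, Ifit3 and Ifit3b gave a log2 fold change of -0.45 ± 0.18. Ifit3b took 22.8%, 31.2% and 17.8% of the pair's fragments in WT libraries and 19.2%, 19.7% and 16.1% in Yme1l-/- libraries. The second WT culture, whose Wilson 95% interval was 25.5% to 37.4%, was the only library above 23%. Ifit1, Ifit1bl1 and Ifit1bl2 counted together gave 0.01 ± 0.08. Ifit1bl2 took 0.442%, 0.303% and 0.713% of the fragments of Ifit1 and Ifit1bl2 in WT libraries, and 1.91%, 1.03% and 1.32% in Yme1l-/- libraries. Where fragments from the stretches that both loci have in common were counted is not given in the sources used here. Whether such fragments add to the Ifit1bl2 counts was not tested.

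**Figure D3:**
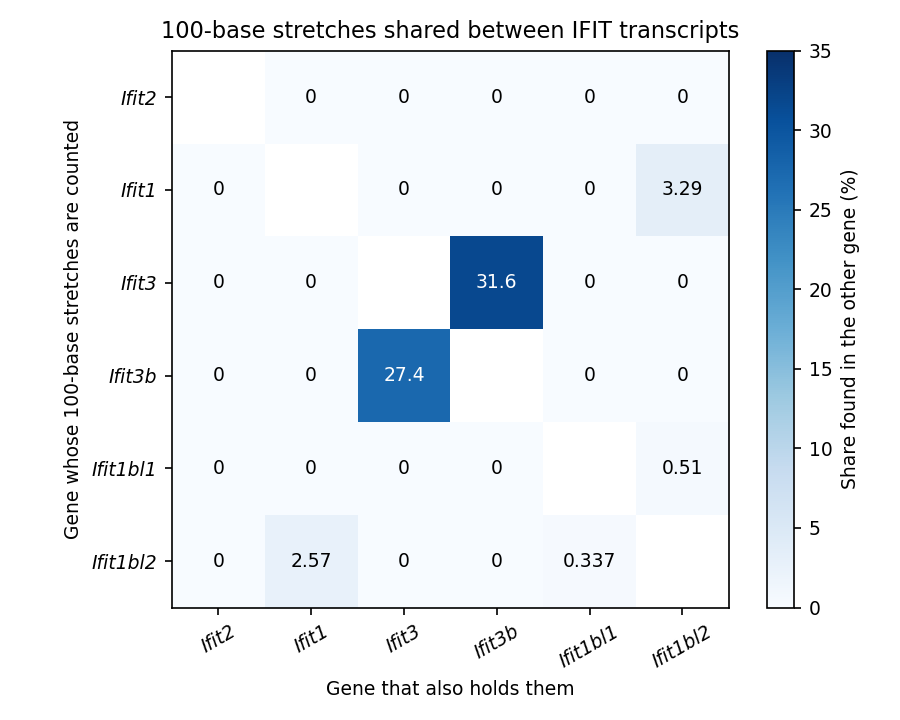
Share (%) of the 100-base stretches of each member's transcripts (rows) that occur unchanged in the transcripts of each other member (columns). The exchange between Ifit3 and Ifit3b (31.6% and 27.4%) stands out, Ifit1 and Ifit1bl2 share 3.29% and 2.57%, and the cells of Ifit2 are at 0.

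Genes that are usually induced together with the IFIT family were higher in Yme1l-/- cells. Of 25 other antiviral effector genes 24 rose and none fell, with a median log2 fold change of 1.87. Where every sample had to reach 10 counts, which left out loci near the floor, 21 rose and 0 fell. The largest rises were those of Ifi44 (5.17 ± 0.18, adjusted p = 1.02e-09), Oas3, which makes the second messenger that activates RNase L (4.71 ± 0.22), and Trim30a (4.56 ± 0.25, adjusted p = 1.51e-07, both p-values by the edgeR test named above). Oas3 averaged 0.213 CPM in WT libraries, with 7 fragments in the lowest library. It passed the filter only through the Yme1l-/- libraries, where it was higher, so its value is a description. The smallest rises were those of Rsad2 (viperin, 0.82 ± 0.21) and Eif2ak2, the kinase PKR (1.18 ± 0.08). The exception was Oasl1, named after its value was seen, with -0.07 ± 0.12 and overlapping libraries. It was the 1 gene of the 25 with a log2 fold change below that of Ifit1, and 0 of the 25 were below that of Ifit2. These lists were written with earlier results of the same libraries known, and the counts of all lists are set beside the 33.6% of all tested loci that were called higher and the 34.1% called lower.

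In WT cells Ifit2 and Ifit1 ranked high among these effectors per kilobase of exon. Only 3 of the 25 exceeded Ifit2 and 4 exceeded Ifit1, at a list median of 1.73 CPM per kb. In Yme1l-/- cells 10 exceeded Ifit2 and 9 exceeded Ifit1, and the list median was 6.68 CPM per kb. For Ifit3 the number went from 10 to 19, and for Ifit3b from 16 to 24. Ifit1 thus stood lower in rank at an equal level of its own.

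The genes that carry the interferon signal to the IFIT promoters rose for the most part. Of 15 loci of the receptor and ISGF3 pathway 10 rose and 4 fell, with a median of 0.56. Without the 3 merged loci 7 rose and the median was 0.33. Usp18, a feedback inhibitor at the receptor and itself an interferon target, rose by 3.10 ± 0.14 (adjusted p = 2.94e-08), the transcription factor gene Irf7 by 2.57 ± 0.11 and Stat2 by 1.76 ± 0.08 (same edgeR test). Socs1, which inhibits JAK kinases, fell by 0.87 ± 0.18 on the log2 scale (adjusted p = 0.00151 by the same edgeR test) and was the 1 locus of the list below Ifit2. Irf3, which can drive IFIT promoters without interferon, fell by 0.23 ± 0.05. The loci of Irf9 and Ifnar2 were merged with other genes (Rnf31, and Il10rb with Gm21970), and their rises cannot be assigned to these genes alone. Of 10 RNA and DNA sensors and adaptors 8 rose and 1 fell, with a median of 0.79. The RIG-I-like receptor gene Dhx58 (3.30 ± 0.10), the nucleic acid sensor Zbp1 (2.93 ± 0.24) and Tlr3 (2.43 ± 0.13) rose most, Ticam1, the adaptor of TLR3, rose by 0.28 ± 0.07, and Mb21d1, which encodes cGAS, fell by 0.24 ± 0.05.

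Transcripts of the interferons themselves were at the limit of detection. Of 20 loci of type I, II and III interferons 3 had any fragment. Ifnz had 1, 1 and 4 fragments in the Yme1l-/- libraries and 0 in the WT libraries, Ifnb1 had 1 in WT replicate 2, and Ifne had 1 each in WT replicate 1 and Yme1l-/- replicate 3. None passed the filter. A count of 0 allows a level of up to 0.0919 CPM in WT and 0.0857 CPM in Yme1l-/- libraries, so that low interferon transcript levels were not detectable at this depth.

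Partners and competitors of IFIT proteins in translation had medians near or below 0. Of 13 loci for cap synthesis and cap binding 4 rose and 7 fell, with a median of -0.29. Ncbp3, a nuclear cap-binding protein, rose by 0.91 ± 0.06, the helicase gene Eif4a1 by 0.63 ± 0.06, and the locus of the cap methyltransferase Cmtr1, merged with Rnf8, Tbc1d22b and Gm28043, by 0.37 ± 0.04. The cap methyltransferase genes Rnmt and Cmtr2, whose products methylate the cap, fell by 0.48 ± 0.05 and 0.46 ± 0.08 on the log2 scale (adjusted p = 2.76e-06 and 0.000518, same edgeR test). Of 14 loci of eIF3 subunits 5 rose and 1 fell, with a median of 0.04, and the share that rose is close to the 33.6% of all tested loci. Eif3l rose by 0.80 ± 0.04, Eif3d by 0.74 ± 0.05, Eif3e by 0.62 ± 0.06 and Eif3c by 0.41 ± 0.04, and Eif3g fell by 0.22 ± 0.05 on the log2 scale.

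**Figure D4:**
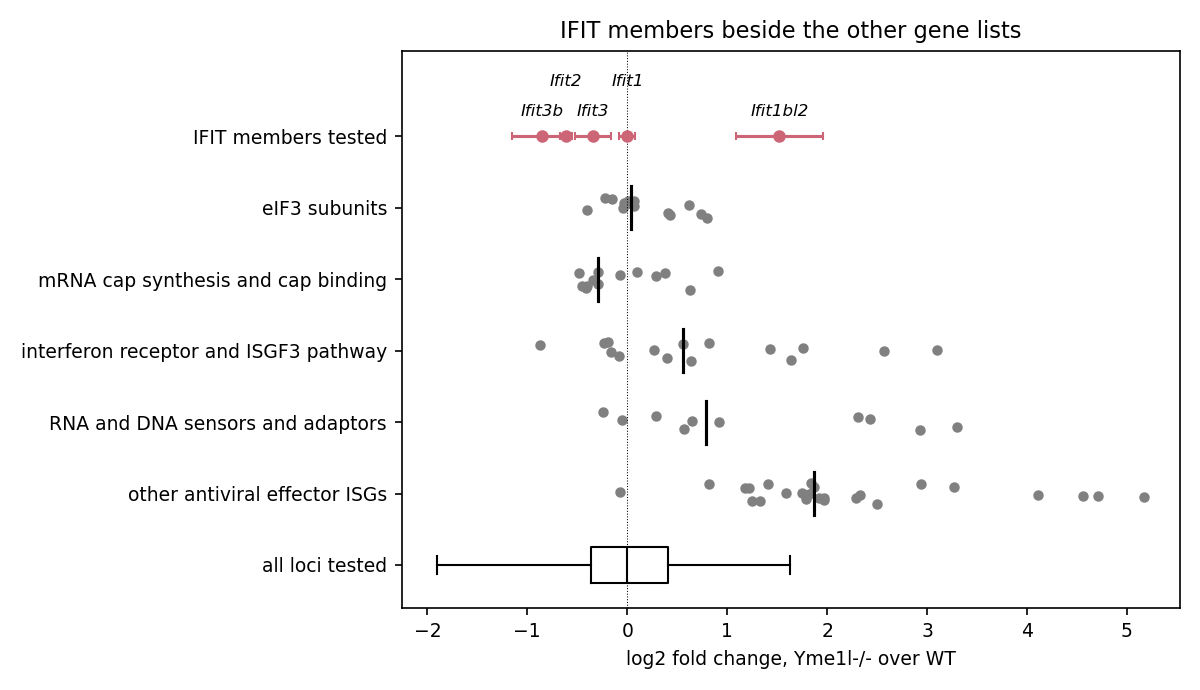
Log2 fold change of Yme1l-/- over WT (x axis) for the 5 fitted IFIT members (red, ± SE), for each locus of the other lists (grey points, black bar at the median) and for all 13867 loci tested (box from the lower to the upper quartile with the median, whiskers at the 5th and 95th percentile). Apart from Ifit1bl2, the IFIT members lie at or left of 0, while 24 of the 25 other antiviral effectors lie right of it.

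The genes around the cluster were taken by position alone. Within 1000000 bases of the outermost members 33 other loci were listed, of which 7 were tested, 3 rose and none fell, where 63.7% of the 444 tested loci of chromosome 19 were called and their median log2 fold change was 0.12. The risers lay on the Ifit2 side. Fas, a death receptor gene, rose by 1.98 ± 0.13 (adjusted p = 1.66e-07), Acta2, smooth muscle actin, by 1.61 ± 0.08 (adjusted p = 5.73e-08) from 228 ± 14.9 to 699 ± 81.4 CPM, and Stambpl1 by 0.51 ± 0.07 (adjusted p = 3.22e-05, all by the edgeR test). The other tested neighbours gave small differences or uncertain ones. Lipa, the lysosomal acid lipase gene just beyond Ifit2, gave -0.12 ± 0.05, Ch25h, itself inducible by interferon, 0.31 ± 0.55 on at most 28 fragments, Pank1 -0.11 ± 0.09 and Kif20b -0.01 ± 0.05.

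**Figure D5:**
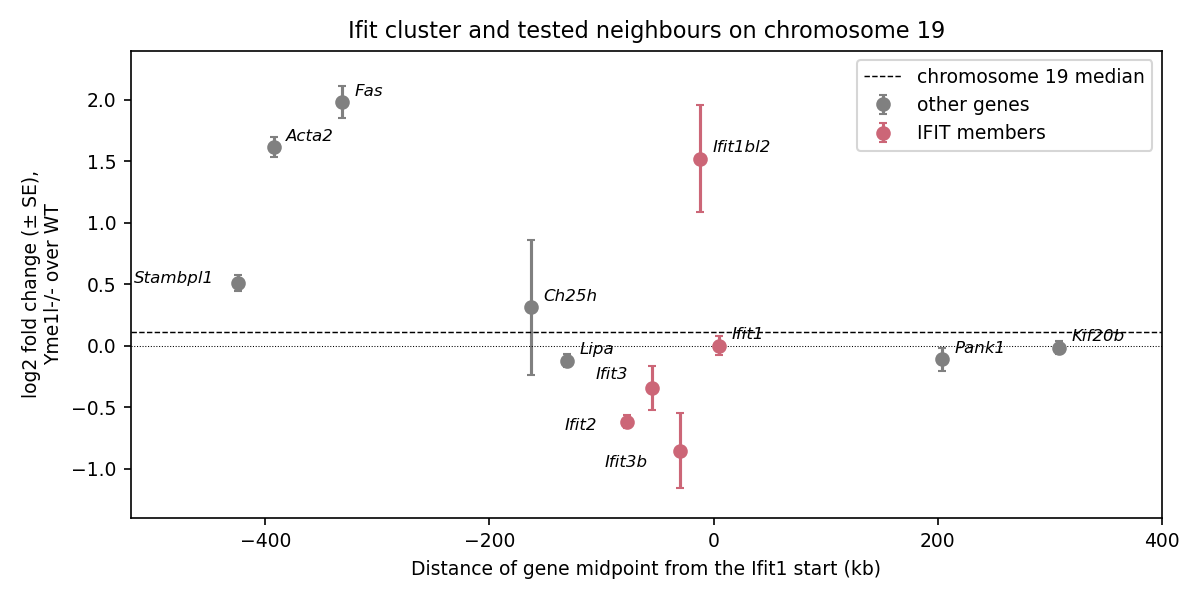
Log2 fold change of Yme1l-/- over WT (y axis, ± SE) against the distance of each gene's midpoint from the start of Ifit1 in kb (x axis), for the 5 fitted IFIT members (red) and the 7 tested neighbours (grey). The dashed line is the median of the tested loci of chromosome 19 (0.12). Fas and Acta2 stand above 1.5, while Lipa and Kif20b, on the opposite sides of the cluster, lie near 0.

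Genes with profiles most like those of the members were sought over the 6 libraries among 10583 candidates, by the root mean square difference of log2 CPM centred on each gene's own mean. Among the nearest to Ifit2 were Amotl1 (0.0144) and Hmgxb4 (0.0227), neither of them on chromosome 19. The nearest to Ifit1 were Tmem168 (0.0303), Plcb4 (0.0309) and Narf (0.0401), and those nearest to Ifit3 were Syne1 (0.0583), Plekha6 (0.0691) and Tet2 (0.0734). Members of the family were far down each other's lists. For Ifit1, Ifit3 came at rank 6417, Ifit2 at 7253 and Ifit3b at 8822. For Ifit2 the closest relative was Ifit3 at rank 3034, and for Ifit3 it was Ifit2 at rank 1196. Ifit3b, the near copy of Ifit3 with few fragments, came at rank 6305 for Ifit3. All 6 points of such a profile come from libraries of only 2 genotypes, and share the genotype difference. The ranks are therefore not separate from the fold changes above, and counting error adds to them.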

How the data were processed

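Stranded poly(A) libraries were sequenced as pairs of 100-base reads from 3 WT and 3 Yme1l-/- MEF cultures. Per the submitters' notes and the study's methods, reads were mapped to GRCm38 (mm10, Ensembl annotation) with HISAT2 2.0.4, assembled with StringTie 1.3.3 and compared with Cuffdiff 2.2.1. The authors deposited raw fragment counts per assembled locus, without normalization, and a comparison table whose combined FPKM value per genotype and positions were used and whose fold changes, p-values and q-values were not. The treatment of multi-mapping fragments is not given in the sources used here. The table merges overlapping genes in 635 loci.

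The study's test needs alignments, so counts were fitted in R 4.3.3 with edgeR 4.0.16 (filterByExpr with a minimum count of 10, TMM, robust quasi-likelihood fit, two-sided test, no covariates), with Benjamini-Hochberg adjustment over all 13867 loci and calls at an adjusted p under 0.05. The script was tested on simulated data. Every pair of libraries within a genotype had a chi-square of 8.45 or more per degree of freedom, above sampling noise, and each was counted. Lengths and shared stretches come from GENCODE M21 and were computed with Biopython 1.88. Promoters come from RefSeq, and were matched by symbol for 6 of 6 members. Fragments copied by PCR were not identified, so intervals (Wilson, 95%) and floors (3 counts) cover counting error only.

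Members and lists were chosen with earlier results of these data known. Beyond the members and Yme1l1, the genes named were, in each list, the 3 called loci with the highest and the 2 with the lowest log2 fold change among those averaging 1 CPM or more in one genotype, all tested neighbours, and the 3 profiles most like Ifit1, Ifit2 and Ifit3. Oasl1, Irf9 and Ifnar2, and interferon genes with any fragment, were named outside that rule, and some single loci are not reported here. Alternatives were RLE and upper-quartile scaling, DESeq2 1.42.0, 2 other filters, a replicate block, leaving out each culture, summing near copies, and leaving out merged loci.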

Additional observations from a re-analysis of the deposited data

How the results depend on the processing

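Values of the members are descriptions under every setting. The log2 fold change ranged from -0.66 to -0.56 for Ifit2 and from -0.05 to 0.07 for Ifit1 over all settings run. It ranged from -1.06 to -0.44 for Ifit3b and from -0.51 to -0.21 for Ifit3 over single cultures left out, and was -0.45 for both summed. Ifit1bl2 ranged from 1.32 to 1.83 over cultures left out, could not be fitted with at least 10 counts in every sample, and gave 0.013 when summed with Ifit1 and Ifit1bl1, which Ifit1 then dominates by construction. The family sum ranged from -0.41 to -0.31. Of all loci 9387 were called, which became 8513 where every sample had to reach 10 counts, 10050 with no filter beyond a total of 1 count, 9106 with DESeq2, and 8847 to 9406 over cultures left out. Of the calls 49.6% were higher in Yme1l-/- cells (4653, and 4734 lower), and 55.1% with upper-quartile scaling (5168, and 4204 lower).

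Replicate numbers did not pair the samples, since deviations of same-numbered cultures correlated at 0.12, -0.08 and 0.04. Under a replicate block 9794 calls were made, and the log2 fold changes were 0.00 for Ifit1, -0.62 for Ifit2, -0.34 for Ifit3 (then marked at the threshold, which it was not without the block), -0.84 for Ifit3b, 1.54 for Ifit1bl2 and -0.37 for the family sum.

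The median of the receptor and ISGF3 list was 0.33 without merged loci and 0.46 to 0.69 over cultures left out. That of the cap list was -0.24 with upper-quartile scaling, which moved the median of all loci by under 0.1, and -0.31 to -0.26 over cultures left out. Loci of eIF3 called lower numbered 1 to 2 over cultures left out. Members under 100 fragments a library (Ifit3b, Ifit1bl1 and Ifit1bl2) are limited by depth.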
